A study of Mus musculus with 8 samples.

Results

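Transcripts of the cytosolic ribosomal protein genes were followed in RAW macrophages, a mouse line of macrophages that a leukaemia virus transformed, after treatment with a statin, with lipopolysaccharide (LPS), or with both. The genes were chosen by symbol: Rpl or Rps followed by a digit, without the pseudogene mark "-ps" and without the Rps6k kinase genes, plus Rplp0, Rplp1, Rplp2 and Rpsa. This gave 88 of the 24421 entries of the table, 53 named for the large subunit and 35 for the small subunit. Of these, 82 averaged at least 10 normalized counts across the 8 libraries and were tested, and 6 averaged less. Statin LPS cells received 7 µM statin (lovastatin with mevalonate, per the study) plus lipoprotein-deficient serum and then 100 ng/ml LPS for 3 h in medium with albumin. Cells of the ctl LPS group received the LPS without the statin, statin cells the statin without LPS, and Ctrl cells neither. Each group had 2 libraries. The sources do not say whether the other cells had the same serum or mevalonate, so each statin comparison covers the whole treatment. The labels do not say that the libraries of a group came from separate cultures, so the p-values measure the spread between these samples, which may be technical.

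The cytosolic ribosome is built of a small subunit, which reads the messenger RNA, and a large subunit, which joins the amino acids and carries a flexible stalk that recruits translation factors. Its protein genes are among the most abundantly transcribed genes of a growing cell and are expressed in near-equal amounts, since each ribosome holds nearly all of them. Their transcripts typically begin with a run of pyrimidines, the terminal oligopyrimidine (TOP) element, through which the growth kinase complex mTORC1 controls their translation. Several of the genes have a close copy, or paralog, that can take the place of the core protein.

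Promoter sequences around the start of transcription show the bases where a TOP element would lie. They are given for Rplp0, Rps6 and Rps3 as core genes of the stalk and the small subunit, and for the genes with the largest changes between cells with and without statin. RefSeq (GRCm38.p6) held a promoter for 67 of the 88 symbols. Rpl17, which is among the genes with the largest changes, was not one of them and is not shown. Each line has 40 bases before the annotated start and 20 bases from it on, and capitals mark the longest run of C and T that touches the window from 10 bases before to 11 bases after the start.
Rplp0 (chr5:115559427-115559486, + strand): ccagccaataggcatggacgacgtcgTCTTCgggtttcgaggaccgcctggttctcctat
Rps6 (chr4:86857348-86857407, - strand): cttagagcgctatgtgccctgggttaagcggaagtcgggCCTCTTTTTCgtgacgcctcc
Rps3 (chr7:99483690-99483749, - strand): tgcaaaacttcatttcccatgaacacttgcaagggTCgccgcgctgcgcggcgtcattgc
Rpl10a (chr17:28328431-28328490, + strand): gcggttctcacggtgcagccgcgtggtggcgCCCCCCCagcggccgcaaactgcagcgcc
Rpl12 (chr2:32961672-32961731, + strand): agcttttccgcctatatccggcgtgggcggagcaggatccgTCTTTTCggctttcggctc
Rpl13a (chr7:45128726-45128785, - strand): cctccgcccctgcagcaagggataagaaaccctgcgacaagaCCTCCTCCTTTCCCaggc
Rpl22l1 (chr3:28805468-28805527, + strand): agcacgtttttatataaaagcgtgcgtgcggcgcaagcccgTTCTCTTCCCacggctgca
Rps27l (chr9:66946046-66946105, + strand): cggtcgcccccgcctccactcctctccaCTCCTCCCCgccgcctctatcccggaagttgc
Rpl7l1 (chr17:46782637-46782696, - strand): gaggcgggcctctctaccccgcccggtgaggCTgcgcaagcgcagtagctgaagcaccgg
Rps19bp1 (chr15:80264287-80264346, - strand): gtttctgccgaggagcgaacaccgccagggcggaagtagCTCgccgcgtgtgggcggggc

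A run of at least 8 pyrimidines touched the window in 27 of the 67 promoters (40.3%), against 13.9% of all 27025 promoters of the table. Of the sequences shown, Rps6, Rpl13a, Rpl22l1 and Rps27l had such a run, with 10, 14, 10 and 9 bases. That of Rps27l began 12 bases before the annotated start and ended before it. The other sequences shown had shorter runs. A run is a match of letters at an annotated start, which need not be the start used in these cells, and no match says only that these letters are not in the window.

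The libraries held 37.0 to 76.4 M reads over genes, and 1 read was worth 0.781 to 1.33 normalized counts. All 10 macrophage markers were present in every group, with a summed normalized count of 653804 to 675292 in statin LPS, 654391 to 655475 in ctl LPS, 707568 to 806674 in statin and 546865 to 590267 in Ctrl libraries. The sums do not show changes of single markers. Between statin LPS and ctl LPS cells 1 marker was higher and 3 were lower, where 31.4% and 32.9% of all genes were. Cd14 was at 0.93 and Fcgr1 at -4.95 on the log2 scale. Mertk had only 1.56 normalized counts in Ctrl library 1. Some libraries stood apart on genes outside the ribosomal protein set. The ribosomal RNA gene Rn45s took 1.72% of the reads of statin library 2 and 0.0705 to 0.153% in each of the other 7. The complement C1q genes of tissue macrophages summed to 1634 normalized counts in ctl LPS library 1 and 1.25 in ctl LPS library 2, and to 273 and 365 in the statin LPS libraries. The 6 fibroblast markers summed to 443 and 541 in statin LPS, 897 and 41.3 in ctl LPS, 437 and 597 in statin, and 45.3 and 166 in Ctrl libraries, where Pdgfrb carried most of the sum of the resting libraries. Of 8 lymphocyte markers, 3 were at 0 in all libraries and 1, Lck, passed the filter. For some comparisons the counts of called ribosomal protein genes are also given without both ctl LPS library 1 and statin library 2. The paralog ratios and the gene lists are given on all 8 libraries only. In bulk samples a change in the number of cells of a type and a change in RNA per cell cannot be told apart.

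The ribosomal protein transcripts took a smaller share of the reads in cells that had received the statin, both with and without LPS. The share does not depend on the size factors by which libraries were scaled. It was 4.56% and 4.43% in statin LPS cells, against 5.38% and 5.44% in ctl LPS cells, with means of 4.50% ± 0.089 and 5.41% ± 0.039 (SD, n = 2 each). Both statin LPS libraries were thus below both ctl LPS libraries by far more than the spread within a pair. At rest the share was 4.86% and 5.58% in statin cells, against 5.92% and 6.99% in Ctrl cells, with means of 5.22% ± 0.51 and 6.46% ± 0.76 (SD, n = 2 each). The resting groups did not overlap, but the gap between their nearest libraries was smaller than the gap between the libraries of either group. The share was also lower in both ctl LPS libraries than in either Ctrl library. No test was made on these shares.

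A share falls also when other transcripts take more of the reads. With Rn45s and the 50 other genes of highest mean outside the set left out of the total, the means were 5.71% in statin LPS, 6.90% in ctl LPS, 6.16% in statin and 7.31% in Ctrl cells, which puts the means in the same order. The separation of some groups was lost, however, with 6.66% in Ctrl library 1, against 6.87% and 6.94% in the ctl LPS libraries. At rest the nearest libraries were then 6.63% in statin library 2 and 6.66% in Ctrl library 1. Both subunits moved together. Reads on large subunit symbols were 1.33 to 1.34 times those on small subunit symbols in all 8 libraries, counted per gene without correction for length.

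**Figure D1:**
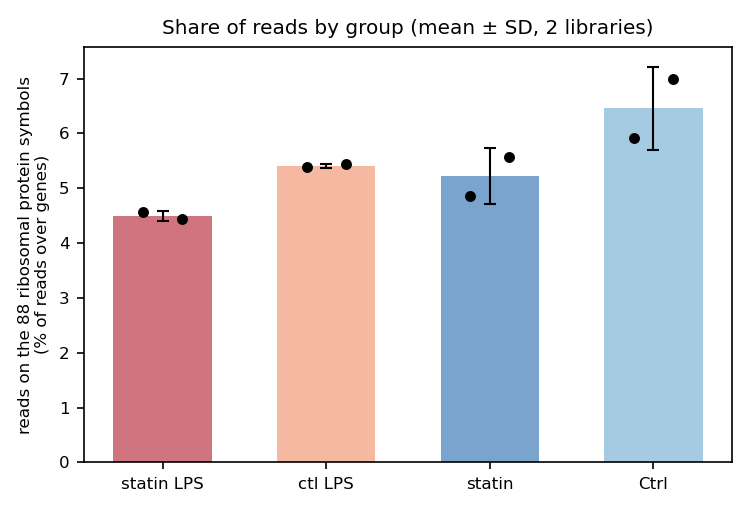
Reads on the 88 ribosomal protein symbols in percent of all reads over genes, by group. Bars are means, error bars the SD of 2 libraries and points the libraries. The share was lowest in statin LPS cells (4.50%) and highest in Ctrl cells (6.46%), and the Ctrl and statin pairs were spread more widely than the LPS pairs.

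On the authors' scaling, nearly all ribosomal protein genes were lower in statin LPS cells than in ctl LPS cells, by a similar amount. Of 82 genes, 75 fell, 2 rose and 5 did not pass the test, with a median log2 fold change of -0.61 and a middle range (quartiles) of -0.66 to -0.53. Over all 11647 genes tested, 32.9% fell and 31.4% rose, and their median was -0.01. The libraries of the 2 groups did not overlap, with statin LPS lower, for 76 of the 82, against 45.4% of all genes. The large subunit genes, with 45 of 49 lower and a median of -0.61, and the small subunit genes, with 30 of 33 lower and a median of -0.61, moved alike. The spread of the changes over genes (robust SD 0.10) was as large as the median standard error (SE) of a single gene, 0.10. Without ctl LPS library 1 and statin library 2, 74 genes fell. The 2 rises became 1 without either ctl LPS library or statin LPS library 2, and 0 without statin LPS library 1.

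How far the genes fell depended on the scaling. With all libraries scaled to equal totals, 35 of the 82 fell against 17.7% of all genes, and 4 rose, with a median of -0.27 for the set and 0.33 for all genes. After quantile normalization, 1 fell against 27.5% of all genes, and 3 rose, with a median of -0.10 for the set and 0.05 for all genes. The set's median was below that of all genes under each of these scalings, by 0.60 with the authors' size factors, 0.59 with equal totals and 0.15 with quantile normalization.

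Of the large subunit genes that fell, Rpl17, whose protein lines the exit tunnel, changed most. Its normalized counts were 39580 and 37152 in statin LPS cells, against 68164 and 67732 in ctl LPS cells. The statin LPS pair was well below the ctl LPS pair, at -0.83 ± 0.12 on the log2 scale (SE, limma adjusted p = 0.000513), and -0.48 and -0.21 on equal totals and quantile scaling. Rpl10a, the protein of the L1 stalk, had 22681 and 21663 normalized counts in statin LPS cells, against 36785 and 36676 in ctl LPS cells. It fell by 0.73 ± 0.09 on the log2 scale (SE, adjusted p = 0.000212). Rpl12, at the base of the stalk that binds translation factors, had 34907 and 33280 normalized counts in statin LPS cells, against 55873 and 56463 in ctl LPS cells (-0.72 ± 0.09 (SE), adjusted p = 0.000213). In all 3 genes the groups were separated by many times the distance within a pair. They were named because their falls were the largest, and they lie at the edge of a narrow spread, not apart from it.

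The stalk genes were among the smaller falls of the set. Rplp0, the scaffold of the stalk, had 49087 and 47578 normalized counts in statin LPS cells, against 68879 and 71271 in ctl LPS cells, and fell by 0.54 ± 0.11 on the log2 scale (SE, adjusted p = 0.00252), with 0.09 on quantile scaling, a value on the other side of 0. Rplp1 and Rplp2, which bind to it in pairs, had log2 fold changes of -0.49 ± 0.08 and -0.51 ± 0.09 (SE, adjusted p = 0.000875 and 0.00116), where quantile scaling gave 0.12 for Rplp1.

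Of the small subunit genes, Rps3, at the entry of the mRNA channel, had 63118 and 59373 normalized counts in statin LPS cells, against 88341 and 89590 in ctl LPS cells (-0.54 ± 0.11 (SE), adjusted p = 0.00285), with 0.01 on quantile scaling. No stretch of 100 bases of its chosen transcript occurs in another annotated gene. Rps6, the substrate of the S6 kinases, had 32513 and 31984 normalized counts in statin LPS cells, against 48550 and 49695 in ctl LPS cells (-0.61 ± 0.11 (SE), adjusted p = 0.00162). Rpsa, also known as the laminin receptor precursor, fell by 0.60 ± 0.10 on the log2 scale (SE, adjusted p = 0.00099), to 73061 and 69649 normalized counts in statin LPS cells, against 107412 and 109547 in ctl LPS cells. For each of these genes both statin LPS libraries were below both ctl LPS libraries. The remaining genes with the most counts, Rpl4, Rps4x and Rpl7, had log2 fold changes of -0.64, -0.59 and -0.57, and quantile scaling gave 0.02 for Rpl7.

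**Figure D2:**
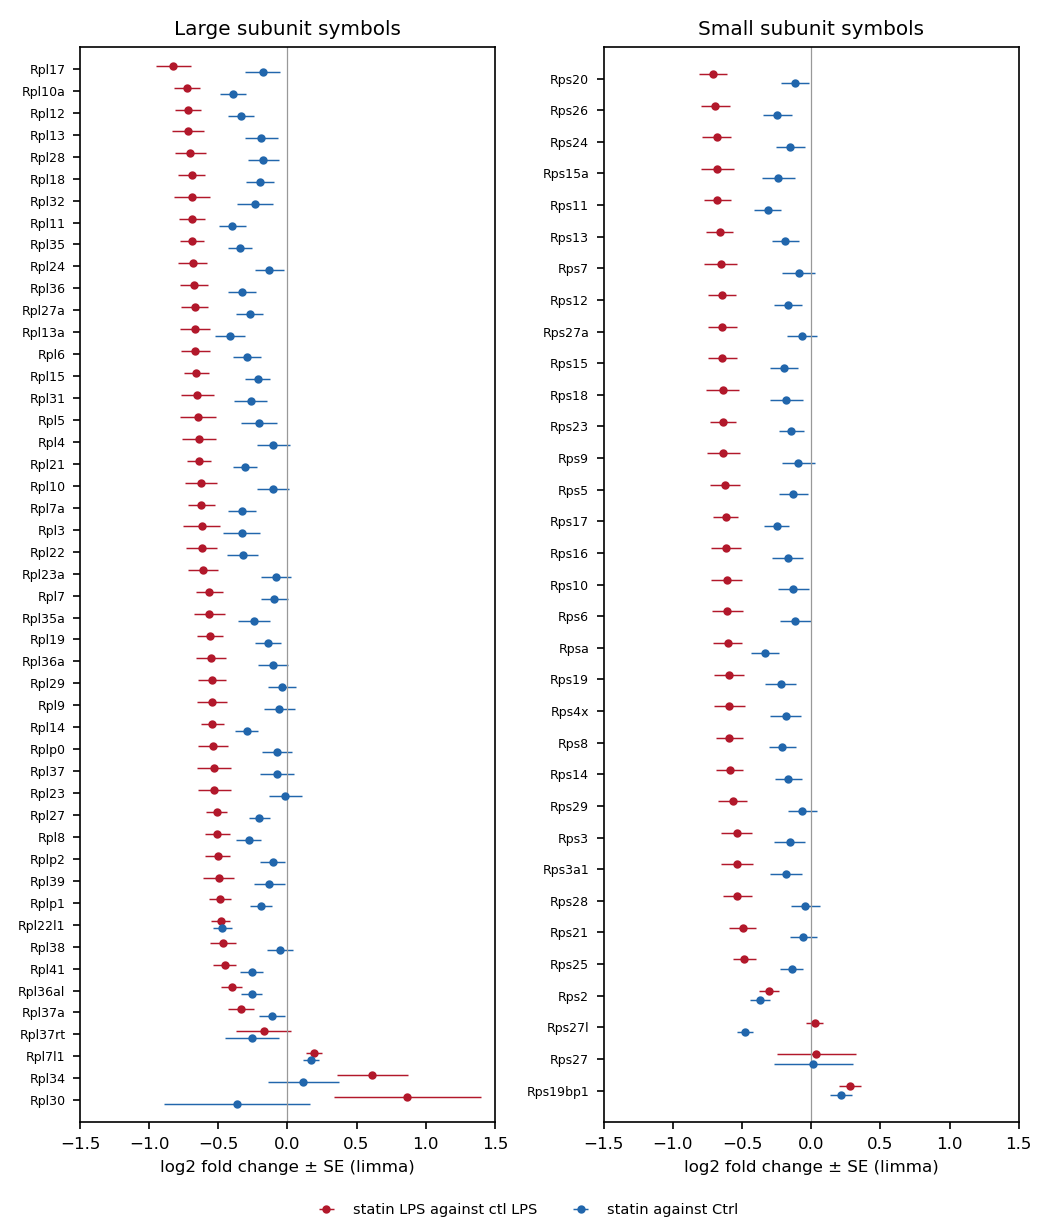
Log2 fold change ± SE (limma, authors' scaling) of the tested genes (1 is not drawn), for statin LPS against ctl LPS (red) and statin against Ctrl (blue), with large subunit symbols on the left and small subunit symbols on the right. The quartiles over the tested genes are -0.66 and -0.53 for red and -0.26 and -0.10 for blue. Among the genes apart are Rps19bp1, Rpl7l1, Rps27l, Rps27, Rpl34 and Rpl30. Quantile scaling moves the red median to -0.10.

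At rest most of the set did not pass the test between statin cells and Ctrl cells. Of the 82, 22 fell against 25.7% of all genes, a share of 26.8% that was close to this background, and 2 rose against 30.4% of all genes. The other 58 did not pass. Of the 82 log2 fold changes, 78 were below 0, with a median of -0.18 (quartiles -0.26 to -0.10), where the median of all genes was 0.01. The libraries did not overlap, with statin lower, for 27 genes, against 36.2% of all genes. Scaled to equal totals 43 fell, against 34.6% of all genes, with a median of -0.30 (all genes -0.10), and after quantile normalization 31 fell, against 29.0% of all genes, with a median of -0.26 (all genes -0.04). Fitted on the resting libraries alone, 3 fell, against 17.1% of all genes.

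This resting difference was no larger than the difference between replicates, which had the same sign in both resting groups. In Ctrl cells, library 2 was above library 1 for 78 of the 82 genes, with a median log2 difference of 0.24, and in statin cells for 79 genes, with 0.21. In ctl LPS and statin LPS cells the same difference was 0.01 and -0.05. Taken by replicate number, the set's median relative to each gene's mean was lower in statin than in Ctrl cells both times. It was -0.38 against -0.22 in libraries 1 and -0.18 against 0.03 in libraries 2. The labels do not say whether libraries of the same number belong together. The count of genes that fell was 55 without Ctrl library 1, 12 without Ctrl library 2, 5 without statin library 1 and 28 without statin library 2. It was 13 when any 1 of the 4 LPS libraries was left out, which changes no resting value and leaves the fit fewer residual degrees of freedom.

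Among those that fell at rest, Rpsa had 61859 and 70463 normalized counts in statin cells, against 79393 and 87300 in Ctrl cells (-0.33 ± 0.10 (SE), adjusted p = 0.0229). Rpl13a, which in human monocytes also acts outside the ribosome to silence inflammatory mRNAs, had 22054 and 25930 normalized counts in statin cells, against 29060 and 35002 in Ctrl cells (-0.42 ± 0.11 (SE), adjusted p = 0.0122). Both had the statin libraries below the Ctrl libraries, without overlap. Of the transcript chosen for Rpl13a, 59.3% overlaps the same-strand gene model Gm45713. The stalk gene Rplp0 had 43182 and 48714 normalized counts in statin cells, against 44051 and 52928 in Ctrl cells, which overlap (-0.07 ± 0.11 (SE), adjusted p = 0.583). Rps6 overlapped likewise (-0.11 ± 0.11 (SE), adjusted p = 0.414), as did Rps3 (-0.16 ± 0.11 (SE), adjusted p = 0.26).

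**Figure D3:**
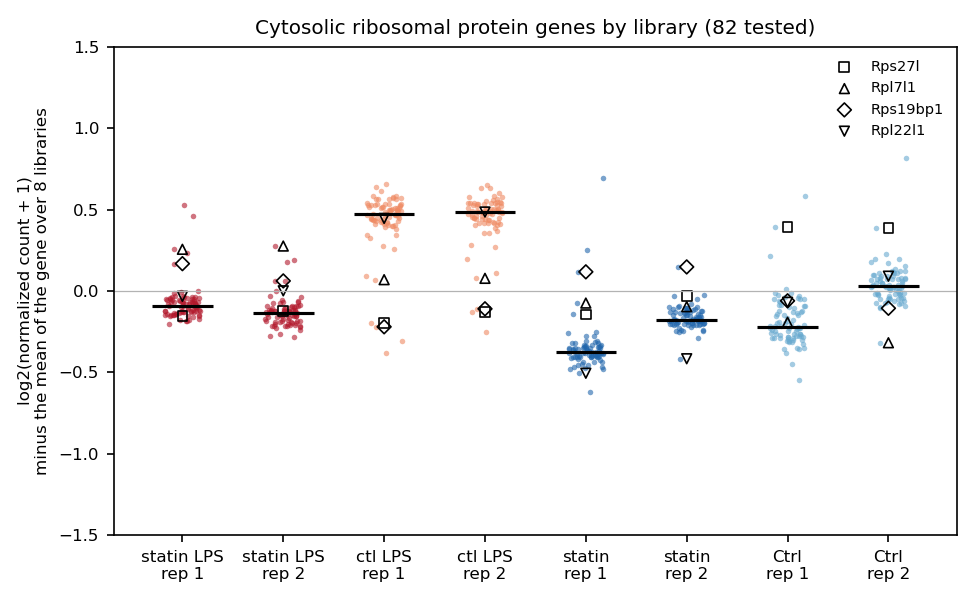
Log2(normalized count + 1) of the 82 tested genes in each library, minus the gene's own mean over the 8 libraries. Black bars mark the median and open symbols mark Rps27l, Rpl7l1, Rps19bp1 and Rpl22l1. The medians were -0.09 and -0.14 in statin LPS, 0.47 and 0.48 in ctl LPS, -0.38 and -0.18 in statin, and -0.22 and 0.03 in Ctrl libraries, and 1 point lies outside the axis. Values are on the authors' scaling, and on equal totals or quantile scaling the ctl LPS libraries were below the Ctrl libraries.

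For LPS without statin, the direction itself depended on the scaling. With the authors' size factors, 76 of the 82 genes rose in ctl LPS cells against Ctrl cells and 2 fell, with a median of 0.55, where 39.9% of all genes rose and 37.6% fell. The libraries did not overlap, with ctl LPS higher, for 77 genes against 45.3% of all genes. With equal totals, 42 of the 82 fell, against 68.6% of all genes, and the median was -0.27 where that of all genes was -0.79. After quantile normalization 71 fell, against 43.9% of all genes, with a median of -0.47 and -0.14 for all genes. The size factors gave the ctl LPS libraries 64.2 and 64.0 M normalized counts in all, against 36.3 and 36.3 M in the Ctrl libraries. The transcripts thus took a smaller share of the reads of ctl LPS cells, while their values set against the median gene were higher on the authors' size factors and on equal totals and lower on quantile scaling. The 2 falls on the authors' scaling became 1 without either Ctrl library or ctl LPS library 2.

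The largest rises on the authors' scaling were those of Rpl24, a protein at the bridge between the subunits, Rpl17, and Rps27a, a fusion of ubiquitin with a small subunit protein. Rpl24 had 29815 and 30094 normalized counts in ctl LPS cells, against 15180 and 18490 in Ctrl cells (0.84 ± 0.10 (SE), adjusted p = 8.8e-05), with 0.02 on equal totals and -0.18 on quantile scaling. The log2 fold changes of Rpl17 and Rps27a were 0.80 and 0.80, where equal totals gave -0.02 for both and quantile scaling gave -0.35 for both. Of the transcript chosen for Rpl24, 71.5% overlaps the same-strand gene model Gm28037, so its value is uncertain. The 2 genes that fell were Rps27l (-0.55 ± 0.06 (SE), adjusted p = 3.89e-05), which stayed below 0 on equal totals (-1.37) and quantile scaling (-0.93), and Rpl30 (-1.65 ± 0.53 (SE), adjusted p = 0.0196). Rpl30 was measured by few reads, with 7.56 and 2.50 normalized counts in ctl LPS cells, against 14.8 and 17.6 in Ctrl cells.

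In cells with statin, LPS changed the set little on the authors' scaling. Of 82 genes, 5 rose in statin LPS cells against statin cells, against 29.2% of all genes, with a set median of 0.15. By limma none fell, against 29.0% of all genes, and none did at an unadjusted p under 0.05, with a count of 0 by edgeR and by DESeq2 as well. With equal totals 17 fell, against 57.4% of all genes, with a median of -0.21 (all genes -0.38), and after quantile normalization 43 fell, against 32.4%, with a median of -0.30 (all genes -0.09). The number that rose was 20 without either Ctrl library, 12 without statin library 2, 2 without statin library 1 and 2 or 3 without an LPS library. The largest rises were of Rpl37rt, which GENCODE lists as a transcribed pseudogene of Rpl37, with 348 and 335 normalized counts in statin LPS cells, against 192 and 253 in statin cells (0.63 ± 0.20 (SE), adjusted p = 0.0242), and of the paralogs Rpl22l1 and Rpl7l1.

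The statin difference was larger with LPS than without it on the authors' scaling. This is the interaction, the log2 fold change of statin LPS against ctl LPS minus that of statin against Ctrl. Its median was -0.41 over the set (all genes -0.03), and 46 of the 82 genes were lower, against 30.1% of all genes, with 1 higher, against 25.5%. Among the largest were those of Rpl17 (-0.65 ± 0.18 (SE), adjusted p = 0.0137) and Rps20 (-0.59 ± 0.14 (SE), adjusted p = 0.00803), where quantile scaling gave 0.04 and 0.01. With equal totals the median was 0.05 (all genes 0.42), 0 genes were lower, 0 at an unadjusted p under 0.05, and 7 were higher, against 51.0% of all genes. After quantile normalization the median was 0.17 (all genes 0.07), with 1 lower and 9 higher, against 30.0% higher of all genes. The count of lower genes was 70 without Ctrl library 2, 9 without statin library 2, 5 without ctl LPS library 1, 9 without ctl LPS library 2, 10 without statin LPS library 1 and 2 without statin LPS library 2. It was 26 by edgeR and 54 by DESeq2, and 0 in limma without both ctl LPS library 1 and statin library 2, with 2 at an unadjusted p under 0.05.

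**Figure D4:**
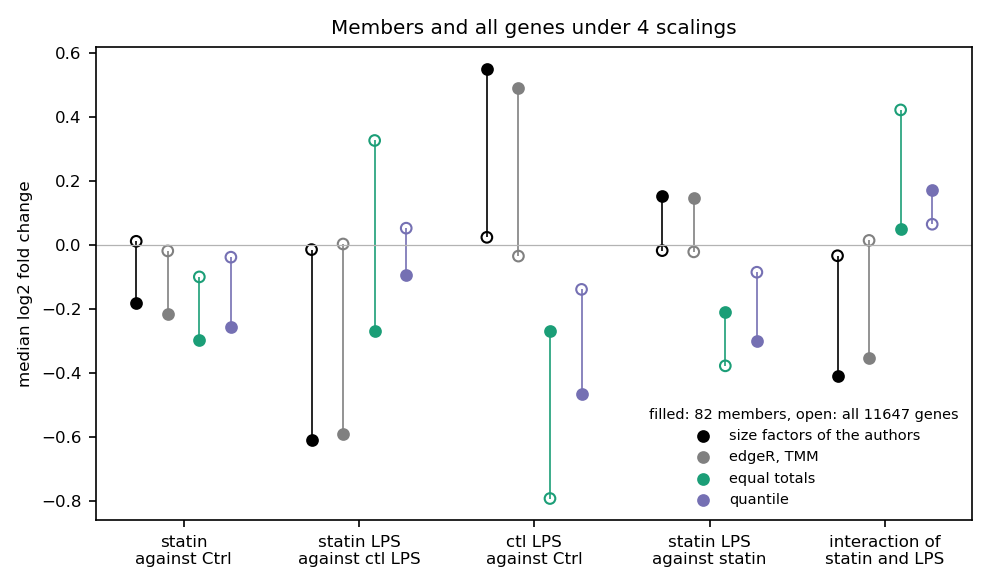
Median log2 fold change of the 82 ribosomal protein genes (filled) and of all 11647 genes (open) in each comparison, with the authors' size factors, edgeR's TMM, equal totals and quantile normalization. In both statin comparisons the set's median lay below that of all genes under each scaling, while the set's median for ctl LPS against Ctrl was 0.55 with the authors' size factors, -0.27 with equal totals and -0.47 with quantile normalization.

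A few genes did not move with the set, and paralogs are described with them whether or not they did. Rps27l, a paralog of Rps27 known as a target of p53, had 3397 and 3467 normalized counts in statin LPS cells, 3296 and 3454 in ctl LPS cells, 3421 and 3697 in statin cells, and 4970 and 4940 in Ctrl cells. The Ctrl libraries were above the other 6, which lay close together. It fell in statin cells against Ctrl cells (-0.48 ± 0.06 (SE), adjusted p = 0.00031), the largest fall of the set at rest, and showed 0.02 ± 0.06 (SE, adjusted p = 0.742) between statin LPS and ctl LPS cells, with 0.37 and 0.08 on equal totals and quantile scaling. Its interaction was 0.50 ± 0.09 (SE, adjusted p = 0.00128), above 0 also on equal totals (0.96) and quantile scaling (0.73). It shares no stretch of 100 bases with another annotated gene.

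Rpl7l1, a paralog of Rpl7 whose human counterpart acts in large subunit assembly, had 8095 and 8208 normalized counts in statin LPS cells, 7112 and 7153 in ctl LPS cells, 6437 and 6339 in statin cells, and 5933 and 5436 in Ctrl cells. The 4 groups did not overlap. It rose with statin in LPS-treated cells (0.19 ± 0.06 (SE), adjusted p = 0.0204, with 0.54 on equal totals and 0.43 on quantile scaling) and at rest (0.17 ± 0.06 (SE), adjusted p = 0.0389, with 0.05 and 0.07). Its core gene Rpl7 had a log2 fold change of -0.57 between statin LPS and ctl LPS cells. On quantile scaling Rpl7 was at 0.02 in the same comparison. The ratio of Rpl7l1 to Rpl7, which no size factor changes, was 0.144 and 0.151 in statin LPS cells, against 0.0870 and 0.0872 in ctl LPS cells. At rest it was 0.141 and 0.124 in statin cells, against 0.123 and 0.0989 in Ctrl cells, again without overlap.

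Rpl22l1, the paralog of Rpl22, had 5760 and 5896 normalized counts in statin LPS cells, 8027 and 8249 in ctl LPS cells, 4150 and 4414 in statin cells, and 5615 and 6276 in Ctrl cells. The statin groups were below their controls without overlap, by -0.48 ± 0.07 (SE, adjusted p = 0.000374) with LPS and -0.47 ± 0.07 (SE, adjusted p = 0.000647) at rest on the authors' scaling. The log2 fold changes with LPS and at rest were -0.14 and -0.59 on equal totals, and -0.20 and -0.65 on quantile scaling. The ratio of Rpl22l1 to Rpl22 was 0.457 and 0.511 in statin LPS cells, against 0.430 and 0.448 in ctl LPS cells, and 0.388 and 0.336 in statin cells, against 0.412 and 0.389 in Ctrl cells. The pairs did not overlap, but they were separated by little, and in opposite directions with and without LPS. Of the Rpl22l1 transcript, 28.8% overlaps Gm33051 on the other strand, and whether the counting used strand is not given in the sources used here.

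Rpl36al, the paralog of Rpl36a, had log2 fold changes of -0.40 ± 0.08 (SE, adjusted p = 0.00186) with LPS and -0.26 ± 0.08 (SE, adjusted p = 0.0202) at rest between cells with and without statin. Its ratio to Rpl36a was 0.373 ± 0.0053 in statin LPS cells and 0.336 ± 0.0093 in ctl LPS cells, and 0.377 ± 0.0084 in statin cells and 0.419 ± 0.032 in Ctrl cells (SD, n = 2 each). Of its transcript, 63.1% overlaps the gene model Gm49383 on the same strand. Rps19bp1, which the symbol rule takes in, codes for a protein that binds Rps19 and is no part of the ribosome. It had 958 and 890 normalized counts in statin LPS cells, against 732 and 790 in ctl LPS cells (0.28 ± 0.08 (SE), adjusted p = 0.0136), and rose at rest by 0.22 ± 0.08 (SE, adjusted p = 0.0448), without overlap of the groups in either comparison. The rises of Rps19bp1 and Rpl7l1 at rest were lost in limma when any library other than Ctrl library 1 was left out, and edgeR and DESeq2 called 0 rises of the set, with 2 and 0 at an unadjusted p under 0.05.

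**Figure D5:**
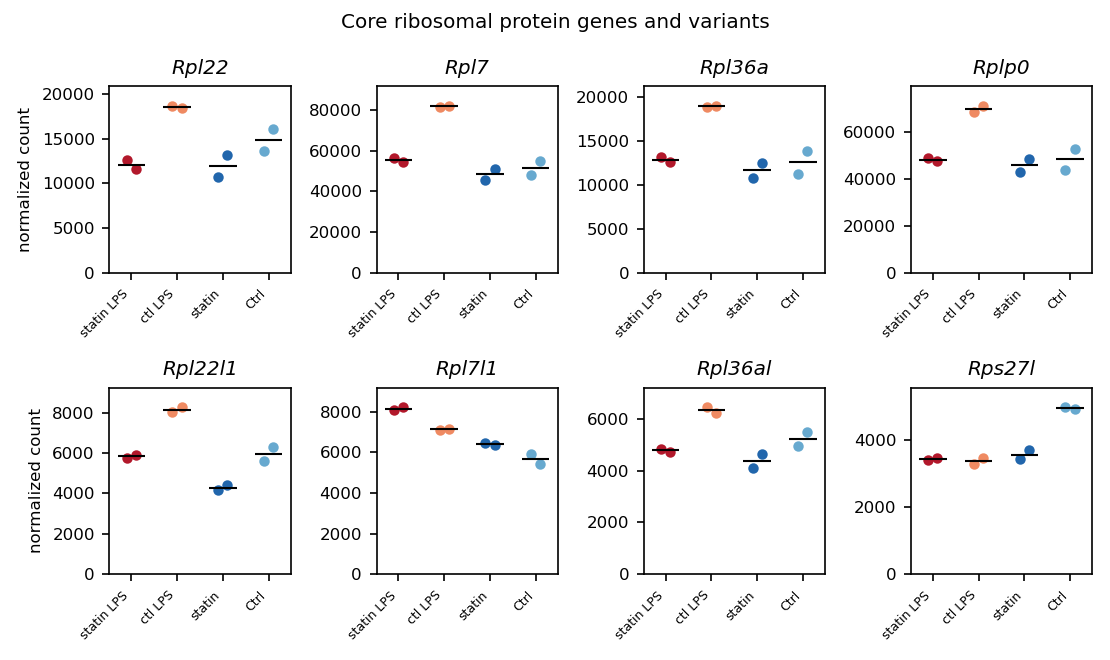
Normalized counts of 4 core genes (Rpl22, Rpl7, Rpl36a and Rplp0, top) and 4 variants (Rpl22l1, Rpl7l1, Rpl36al and Rps27l, bottom) by group on the authors' scaling, with points for libraries and bars for means. Rpl7l1 had its 2 highest values in statin LPS cells (8095 and 8208), where Rpl7 was below its ctl LPS values, and Rps27l was highest in Ctrl cells (4970 and 4940).

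Many genes of the set have near-identical copies elsewhere in the genome, so the reads assigned to a symbol depend on how the counting treated reads with several possible origins, which is not given in the sources used here. In the GENCODE M21 transcripts, a median of 39.0% of the stretches of 100 bases of a symbol also occurred in another annotated gene. The value was 0 for 10 symbols and at least 50% for 36 of the 88. The fall in statin LPS cells against ctl LPS cells was present at both ends. The 7 tested genes with no shared stretch had a median log2 fold change of -0.54, with 5 that fell. The 35 tested genes with at least 50% shared had a median of -0.64, with 33 that fell. Over the 82 tested genes this log2 fold change had a Spearman rho of -0.24 with the percent shared, so genes with more shared sequence tended to fall more. On quantile scaling the median of the whole set was -0.10.

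A few symbols of core proteins had very low counts. Rpl30 had 8.70 and 9.30 normalized counts in statin LPS cells, 7.56 and 2.50 in ctl LPS cells, 16.1 and 9.40 in statin cells, and 14.8 and 17.6 in Ctrl cells. Rps27 averaged 31.0 normalized counts over the libraries and shared 98.4% of its stretches, among others with Rps27rt, and Rpl34 averaged 42.7 and shared 31.0%. Between statin LPS and ctl LPS cells none of these passed (Rpl30 0.87, Rps27 0.04 and Rpl34 0.61 on the log2 scale, with adjusted p of 0.183, 0.917 and 0.0651). Below the filter, Rpl26, Rpl10l and Rps27rt had 0 reads in all 8 libraries, which allows up to 3 reads in each by counting error alone. Rpl39l and Rps4l had 1 read in a single statin LPS library each, and Rpl3l, the paralog of Rpl3 known from muscle, had 1 to 10 reads per library. Rpl3 itself had 45221 and 43573 normalized counts in statin LPS cells, against 65388 and 71180 in ctl LPS cells.

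Ribosomal protein genes that the symbol rule leaves out were also lower in statin LPS cells than in ctl LPS cells on the authors' scaling. Gnb2l1 (also called Rack1), a signalling scaffold on the small subunit, had 77089 and 74792 normalized counts in statin LPS cells, against 126752 and 131116 in ctl LPS cells (-0.76 ± 0.13 (SE), adjusted p = 0.000888). Fau, whose small subunit protein is made as a fusion with a ubiquitin-like sequence, had 24980 and 23728 normalized counts in statin LPS cells, against 37735 and 38801 in ctl LPS cells (-0.65 ± 0.09 (SE), adjusted p = 0.000417). On quantile scaling Gnb2l1 was at -0.26 and Fau at -0.16.

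Translation elongation factors, whose transcripts are also of the TOP kind, fell together with the set on the authors' scaling. Of 8, 6 were lower in statin LPS cells than in ctl LPS cells, against 32.9% of all genes, with a median of -0.42. Equal totals gave a median of -0.08 with 2 higher, and quantile scaling 0.05 with 1 higher. The shares of all genes that rose on these scalings are not given here, so the counts have no background. Eef1a1, which brings aminoacyl-tRNA to the ribosome, had 542124 and 527168 normalized counts in statin LPS cells, against 842913 and 835006 in ctl LPS cells (-0.65 ± 0.20 (SE), adjusted p = 0.0201). Quantile scaling gave 0.00 for Eef1a1. This scaling sets equal ranks to equal values, so a gene that keeps its rank gets 0 whatever its change. Eef2, the translocase, was at -0.65 ± 0.17 on the log2 scale (SE, adjusted p = 0.0103). Initiation factors were mixed. Of 34 tested, 14 fell and 8 rose, with a median of -0.06 on the authors' scaling and 0.28 and 0.19 on equal totals and quantile scaling, where 31.4% of all genes rose and 32.9% fell. Eif2b4 and Eif2b1, subunits of the exchange factor eIF2B, had log2 fold changes of 0.86 and 0.62, and Eif3h and Eif3f, subunits of the scaffold factor eIF3, had -0.63 and -0.62.

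Genes that build ribosomes went the other way from the ribosomal proteins in LPS-treated cells. Of 99 assembly factors, 57 rose and 11 fell in statin LPS cells against ctl LPS cells, with a list median of 0.31. Of all genes, 31.4% rose and 32.9% fell. On equal totals and quantile scaling 84 and 58 assembly factors were higher, but the median gene also rose on these scalings. The shares of all genes that rose on them are not given here, so these counts cannot be set against a background. The shares of all genes that fell were 17.7% and 27.5%. Gnl3, a nucleolar GTPase, had 5217 and 5260 normalized counts in statin LPS cells, against 1321 and 1282 in ctl LPS cells (2.01 ± 0.07 (SE), adjusted p = 1.91e-07). Dkc1, the pseudouridine synthase of ribosomal RNA, had 3680 and 3708 normalized counts in statin LPS cells, against 1332 and 1406 in ctl LPS cells (1.43 ± 0.10 (SE), adjusted p = 7.01e-06). Both genes were lower in ctl LPS cells than in each other group, with 7299 and 5710 normalized counts of Dkc1 in Ctrl cells. The exception among the largest changes was Sbds, a factor that readies the large subunit, which fell by 1.47 ± 0.07 on the log2 scale (SE, adjusted p = 8.36e-07).

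Chaperones and importers of ribosomal proteins rose in 8 of 14 cases and fell in 1 between statin LPS and ctl LPS cells, with Grwd1, the chaperone of Rpl3, at 0.96 ± 0.11 and the importin Kpnb1 at 0.69 ± 0.11 (log2, SE). RNA polymerase I genes, which transcribe ribosomal RNA, rose in 10 of 20 cases and fell in 4. For the lists of this paragraph, the shares of all genes were 31.4% higher and 32.9% lower. Cd3eap, a subunit of this polymerase, was at 2.15 ± 0.10 (log2, SE). Polr1b, a core subunit, had 1738 and 1816 normalized counts in statin LPS cells, against 567 and 610 in ctl LPS cells (1.59 ± 0.10 (SE), adjusted p = 3.66e-06). Both lists had medians above 0 under all 3 scalings, as did all genes with equal totals and quantile normalization. Of 11 genes of the Myc family, 6 rose and 3 fell in statin LPS cells against ctl LPS cells. Mnt and Mxd1, which bind Max as Myc does and oppose it, had the largest rise and fall named, at 4.20 ± 0.07 and -2.58 ± 0.15 (log2, SE). Myc itself, a transcription factor that drives ribosome genes, had 1201 and 1249 normalized counts in statin LPS cells, 388 and 363 in ctl LPS cells, 282 and 160 in statin cells, and 27.3 and 26.5 in Ctrl cells, without overlap between any of the groups.

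At rest the lists differed, where 25.7% of all genes were lower and 30.4% higher in statin cells than in Ctrl cells. Of the 99 assembly factors, 29 fell and 7 rose (median -0.10), a share of falls near that of all genes. Of the 14 chaperones and importers, 9 fell and 1 rose (median -0.28), and of 17 small nucleolar RNA host genes, 10 fell (median -0.55). The medians of these 3 lists were below 0 on equal totals and quantile scaling too. RNA polymerase I genes fell in 6 of 20 cases and rose in 1 (median -0.01), and genes of the Myc family rose in 6 of 11 cases and fell in 1 (median 0.24). Npm1, a nucleolar chaperone, had 46476 and 47409 normalized counts in statin cells, against 87115 and 79105 in Ctrl cells (-0.82 ± 0.09 (SE), adjusted p = 0.000119). Snhg5, which carries small nucleolar RNAs in its introns, had 295 and 367 normalized counts in statin cells, against 959 and 855 in Ctrl cells (-1.46 ± 0.13 (SE), adjusted p = 5.38e-05). Genes of the mTORC1 axis were mixed, with 14 of 28 higher and 7 lower in statin LPS against ctl LPS cells, and 12 higher and 5 lower in statin against Ctrl cells. Of 19 genes of ribosome quality control, 7 rose and 5 fell with LPS, and 7 rose and 2 fell at rest, where the shares of all genes were 31.4% higher and 32.9% lower with LPS and 30.4% higher and 25.7% lower at rest.

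Within the set, the promoter runs described above were set beside the response for the 62 tested genes with a promoter. Whether the response differs with the run was not tested. The 27 tested genes with a run of at least 8 pyrimidines had a median log2 fold change of -0.64 between statin LPS and ctl LPS cells, and the 35 with a shorter run -0.56. At rest the medians were -0.18 and -0.18. Over the 82 genes the log2 fold change of statin LPS against ctl LPS had a Spearman rho of -0.37 with the mean normalized count and -0.29 with transcript length. These are descriptions over genes that share libraries and scaling, and genes are not replicates.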

How the data were processed

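Per the labels, RNA depleted of ribosomal RNA was made into stranded libraries. The submitters' processing notes list the tools STAR (2.5.3), HTSeq (0.9.1) and DESeq2 (1.18.1) and the build mm10, while the methods of the study name other counting software. The deposited values are normalized counts (signal), which the authors made by dividing read counts by size factors. Sheets of the authors' own comparisons (fold changes and p-values) and 12 other per-sample columns were not used. Every value was a whole number of reads within 0.01 (100%), so reads were recovered for edgeR and DESeq2.

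The main test was limma 3.58.1 (R 4.3.3) on log2(normalized count + 1) with a mean for each group, 1 fit over all 8 libraries, a trend on mean expression, and genes with a mean of at least 10. Fold changes on this scale understate those of low genes. Tests were two-sided and adjusted by Benjamini-Hochberg over 11647 genes in each comparison, with an adjusted p under 0.05 called. All adjusted p-values in the text are from it. On the recovered reads edgeR 4.0.16 called 3787 genes higher and 3688 lower in statin LPS against ctl LPS, and DESeq2 1.42.0 called 3486 and 3518. The limma fit was tested on simulated data. Shared sequence and overlaps used 1 GENCODE M21 transcript per gene. Tables were read with Python 3.11.15 and pandas 2.3.3.

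Members and lists were chosen with earlier results of these data known. Genes named in the text are the 3 with the largest called rise and fall in each comparison, those of highest and lowest mean, the stalk genes, Rpsa, Rps6, Rps3, paralog pairs, symbols below the filter and some of the up to 4 genes a list with the largest called changes; 2 genes are not reported here. Comparisons share libraries: ctl LPS and Ctrl each enter more than 1. Alternatives were the pseudocount, the filter, the scaling, edgeR, DESeq2, the libraries of a contrast alone, a replicate block and leaving out libraries.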

Additional observations from a re-analysis of the deposited data

Results flagged for a closer look

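The statin difference of 47 ribosomal protein genes depended on LPS by the interaction term of limma, 46 with a lower and 1 with a higher log2 fold change in statin LPS against ctl LPS than in statin against Ctrl. Of all genes, 30.1% were lower and 25.5% higher by this term. The 46 lower became 0 with equal totals, 1 with quantile normalization and 0 without both ctl LPS library 1 and statin library 2. Among those named, Rpl17 (-0.65), Rps20 (-0.59) and Rps27l (0.50, log2) were picked out by this test of the difference between the 2 statin effects. Rpl17 and Rps20 were at 0.04 and 0.01 on quantile scaling, and Rps27l was at 0.73.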

How the results depend on the processing

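All counts here are of the 82 tested genes unless said otherwise. Statin against Ctrl, with 2 higher and 22 lower, gave 0 higher without the filter (of 85), with equal totals, on the contrast's own libraries, under the replicate block, without both ctl LPS library 1 and statin library 2, by edgeR and by DESeq2, and 1 higher with quantile normalization. At an unadjusted p under 0.05 the number higher was 2 without the filter, in the block and by edgeR, and 0 in the others. The number lower was 43 with equal totals and 3 on the contrast's own libraries. Leaving out 1 library gave 0 to 2 higher and 5 to 55 lower. Statin LPS against ctl LPS, with 2 higher and 75 lower, gave 4 and 35 with equal totals, 1 lower with quantile normalization, and 1 higher without both libraries, with 0 to 2 higher and 73 to 75 lower when 1 library was left out. For ctl LPS against Ctrl, 76 higher and 2 lower became 0 and 42 with equal totals and 2 and 71 with quantile normalization, and 1 lower with a minimum mean of 50 and by DESeq2. Leaving out 1 library gave 68 to 77 higher and 1 to 2 lower. Statin LPS against statin, with 5 higher and 0 lower, gave 3 higher without the filter, without both libraries and by edgeR, 12 by DESeq2, 0 higher and 17 lower with equal totals, and 2 and 43 with quantile normalization, and 2 to 20 higher when 1 library was left out. For the interaction, 1 higher and 46 lower became 7 and 0 with equal totals, 9 and 1 with quantile normalization, 0 lower without both libraries and 26 by edgeR, with 1 to 2 higher and 2 to 70 lower when 1 library was left out.

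Medians that changed sign were those of ctl LPS against Ctrl (-0.27 with equal totals, -0.47 with quantile normalization), statin LPS against statin (-0.21 and -0.30) and the interaction (0.050 and 0.17). Single genes that changed sign were Rpl24 (-0.18 with quantile normalization), Rpl17 (-0.016 with equal totals, -0.35 with quantile normalization) and Rps27a (-0.020 and -0.35) in ctl LPS against Ctrl, Rpl7l1 (-0.0097 with equal totals) in statin LPS against statin, and, with quantile normalization, Rpl17 (0.041) and Rps20 (0.013) in the interaction and Rps3 (0.0081), Rpl7 (0.021), Rplp0 (0.091), Rplp1 (0.12) and Rpl10 (0.0027) in statin LPS against ctl LPS. Shares of reads became 5.71% in statin LPS, 6.90% in ctl LPS, 6.16% in statin and 7.31% in Ctrl cells without Rn45s and the 50 other genes of highest mean. The cause of these changes was not tested.

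The labels do not say whether the replicate numbers pair the samples. Over all genes tested, correlations between groups of the difference between libraries 2 and 1 were -0.051 to 0.096. In the set this difference had a median of 0.24 in Ctrl and 0.21 in statin cells, against 0.01 in ctl LPS and -0.05 in statin LPS cells. A block by replicate number takes the same shift in every group, so it cannot remove a shift present only at rest. With the replicate number as a block, 21 genes fell at rest, 75 fell in statin LPS against ctl LPS, and 51 were lower in the interaction. Each group had 2 libraries, so 1 library can decide a resting call, and symbols with shared sequence or under 10 reads are uncertain at any depth.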
